A study of Eragrostis tef with 16 samples.

Results

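Alcohol dehydrogenase 2 (ADH2, Et_6A_047661), the A and B copies of sucrose synthase 2 (SUS2 A, Et_4A_032822, and SUS2 B, Et_4B_037022) and non-symbiotic hemoglobin (Et_1A_007077) were followed across roots and shoots of tef, Eragrostis tef, an allotetraploid cereal. These 4 of the 5824 genes with values were selected on their measured calcium responses, fewer reads in root and more in shoot under low calcium, so those responses are described here without a test. The plants grew in hydroponics, and 4 libraries each came from low-calcium root, optimum-calcium root, low-calcium shoot and optimum-calcium shoot. No accession, genotype, age or calcium concentration is given, and the labels name no oxygen treatment: low oxygen is what the families are known for, not a condition of these plants. The labels do not say whether the 4 libraries of a group came from separate plants, so the p-values measure only the spread between these samples, which may be technical. The header calls the genes target gene IDs without saying of what. It is also not given whether mRNA or small RNA was counted, and higher or lower refers to the reads as deposited.

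Alcohol dehydrogenase turns acetaldehyde into ethanol at the end of fermentation and returns NAD+ to glycolysis when oxygen is too scarce for respiration. Sucrose synthase splits sucrose into fructose and UDP-glucose with less energy spent than invertase and hexokinase need, and it also supplies cell wall synthesis and sugar import in growing organs. Non-symbiotic hemoglobins of plants remove nitric oxide, and in flooded cereal roots genes of all these families are among those usually raised.

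The identity of each gene rests on its best hit in foxtail millet (Setaria), with 91.4% identity for ADH2, 93.0% for SUS2 A, 92.7% for SUS2 B and 92.9% for the hemoglobin. The descriptions of ADH2 and of the hemoglobin stood on 1 gene each, while both SUS2 copies shared a description and a best hit. How reads were divided between such near-identical copies is not given, so the split between SUS2 A and SUS2 B is uncertain.

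Values are given on the deposited scale, log2 of scaled reads plus 1, so that a step of 1 doubles the scaled reads. Gene reads per library were 1.20 to 2.02 Mreads (megareads) in low-calcium root, 2.32 to 3.44 Mreads in optimum-calcium root, 1.82 to 2.10 Mreads in low-calcium shoot and 2.63 to 2.85 Mreads in optimum-calcium shoot. In the numbering of the titles every low-calcium library precedes every optimum-calcium one, so library order and calcium cannot be told apart. The title of low-calcium shoot replicate 4 names both tissues. Its source name is shoot, its summed root markers (1308 RPM, gene reads scaled to library size) lay within the range of the other shoot libraries, and results that rest on it are given with and without it.

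The tissue labels were checked with 6 root markers (nicotianamine synthases and YSL16 transporters) and 19 shoot markers (chlorophyll-binding proteins, photosystem subunits, Rubisco activase and related genes). In limma fits over all genes with Benjamini-Hochberg adjustment, 6 of 6 root markers were higher in root. Of the shoot markers 15 of 19 were lower in root. The other 4 were both copies each of phosphoenolpyruvate carboxylase 1 and of plastid GAPCP1, and they were higher in root. Of all genes 72.3% differed between the tissues in this test. Summed root markers came to 3481 to 21208 RPM in low-calcium root, 11851 to 32512 in optimum-calcium root, 1236 to 1769 in low-calcium shoot and 1122 to 2099 in optimum-calcium shoot. Summed shoot markers came to 3750 to 4576 RPM in low-calcium root, 3784 to 9775 in optimum-calcium root, 82363 to 123150 in low-calcium shoot and 100090 to 130280 in optimum-calcium shoot. In root libraries most of the shoot-marker reads were of the phosphoenolpyruvate carboxylase 1 copies. These had 10267 and 9755 reads over low-calcium root and 22167 and 31066 over optimum-calcium root. The shoot-marker sum in root is thus no measure of shoot tissue. No root marker was at 0 in any library.

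ADH2 had fewer reads in root and more in shoot under low calcium. In root it had log2 values of 10.20, 10.26, 10.67 and 10.62 under low calcium, against 12.68, 12.12, 11.93 and 12.77 under optimum calcium. In shoot the values were 9.04, 9.76, 9.35 and 10.27 under low calcium, against 6.84, 7.33, 7.34 and 7.42 under optimum calcium. The calcium groups did not overlap in either tissue, and the order turned round between them: every low-calcium root library was below, and every low-calcium shoot library above, its optimum-calcium counterparts. In RPM this was 727 ± 149 in low-calcium root and 2849 ± 837 in optimum-calcium root, and 362 ± 173 in low-calcium shoot and 57.5 ± 11.2 in optimum-calcium shoot (SD, n = 4 each). The log2 change under low calcium was -1.93 (SE 0.25) in root, 3.82-fold lower, and 2.37 (SE 0.25) in shoot, 5.16-fold higher. In whole-organ RNA, fewer cells of a type and less RNA per cell cannot be told apart.

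SUS2 A moved most in shoot. Under low calcium its shoot values were 11.42, 10.54, 8.58 and 12.19, against 6.39, 6.68, 7.01 and 6.53 under optimum calcium. These groups did not overlap, but low-calcium replicates 3 and 4 lay far apart, and the SD of that group was 1.56, against 0.27 under optimum calcium. In optimum-calcium shoot SUS2 A had only 85 to 113 reads per library. In root it had 11.27, 11.38, 11.17 and 11.34 under low calcium, against 12.07, 11.49, 13.20 and 11.77 under optimum calcium. The root groups were separate by a narrow gap, with optimum-calcium replicate 3 high above its group. The log2 change was -0.84 (SE 0.54) in root and 4.03 (SE 0.54) in shoot, 16.3-fold higher. Without low-calcium shoot replicate 3 the shoot change was 4.73, 26.6-fold higher.

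SUS2 B moved the same way with smaller steps. Its shoot values were 12.46, 12.03, 10.96 and 13.11 under low calcium, against 9.64, 10.08, 10.17 and 10.63 under optimum calcium. In root they were 11.86, 12.00, 11.73 and 12.03 under low calcium, against 12.50, 12.06, 13.41 and 12.48 under optimum calcium. Neither pair of groups overlapped, though in root the highest low-calcium and the lowest optimum-calcium library nearly met. The log2 change was -0.71 (SE 0.37) in root and 2.01 (SE 0.37) in shoot, 4.03-fold higher. Without optimum-calcium root replicate 3 the root changes were -0.49 for SUS2 A and -0.44 for SUS2 B, so that library carried much of both. It also had the highest summed shoot markers (9775 RPM) and root markers (32512) of the root libraries. In root the shoot-marker sum was mostly phosphoenolpyruvate carboxylase 1, which was higher in root, so it does not measure shoot tissue there. The part of these marker levels in the SUS2 values was not tested.

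The hemoglobin had the fewest reads of the 4, 9 to 48 per library in optimum-calcium shoot and 25 to 180 in low-calcium shoot. In root its values were 7.75, 7.71, 6.98 and 7.79 under low calcium, against 9.0, 8.74, 10.85 and 10.03 under optimum calcium, without overlap. In shoot they were 4.83, 7.91, 7.47 and 7.36 under low calcium, against 3.29, 4.94, 4.41 and 5.39 under optimum calcium. Here the groups overlapped, because low-calcium shoot replicate 1 lay below 2 of the optimum-calcium libraries, while the other low-calcium shoot libraries lay above all of them. The log2 change was -2.10 (SE 0.61) in root, 4.28-fold lower, and 2.38 (SE 0.61) in shoot, 5.22-fold higher. Without low-calcium shoot replicate 1 the shoot change was 3.07, 8.4-fold higher.

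**Figure D1:**
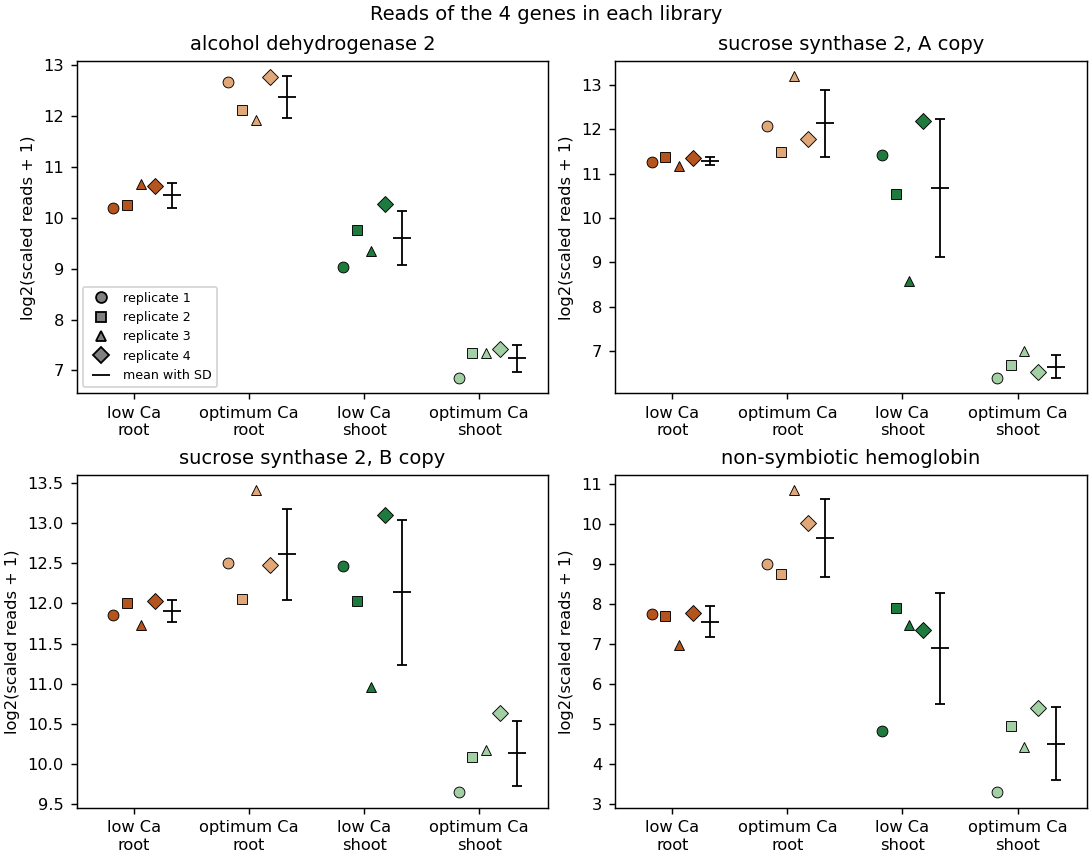
Deposited log2(scaled reads + 1) of ADH2, SUS2 A, SUS2 B and hemoglobin in each of 16 libraries, low calcium left of optimum calcium in root and then in shoot, with a marker shape per replicate and the group mean with SD beside the points. In all 4 panels low-calcium root lay below optimum-calcium root, and in shoot only the hemoglobin groups overlapped.

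The response in root minus that in shoot was -4.30 (SE 0.35) for ADH2, -4.87 (SE 0.77) for SUS2 A, -2.72 (SE 0.53) for SUS2 B and -4.48 (SE 0.86) for the hemoglobin, as log2 differences. Without the shoot library of ambiguous title these became -4.08, -4.37, -2.39 and -4.33, and the shoot responses became 2.15, 3.52, 1.69 and 2.23 in the same order of genes. Without low-calcium shoot replicate 3 the difference for SUS2 A was -5.57, and without low-calcium shoot replicate 1 that for the hemoglobin was -5.17. Low-calcium root lay below optimum-calcium root without overlap in 4 of the 4 genes and in 9.53% of all genes. Low-calcium shoot lay above optimum-calcium shoot without overlap in 3 of the 4 and in 14.1% of all genes. Separation of both calcium pairs in these directions was seen for 18 of all 5824 genes (0.309%), and ADH2, SUS2 A and SUS2 B were among them. These values chose the genes and support nothing further. The root and shoot responses share no library.

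**Figure D2:**
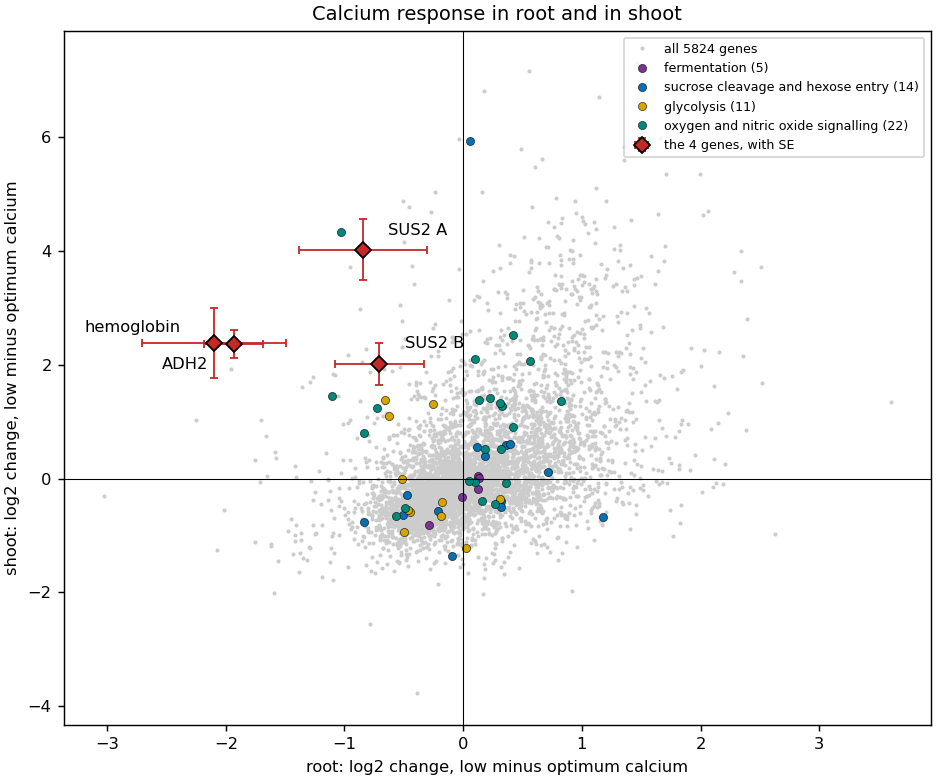
Log2 change under low calcium in root (x axis) and in shoot (y axis) for all 5824 genes (grey), for 52 genes of 4 pathway lists (coloured) and for ADH2, SUS2 A, SUS2 B and hemoglobin (red diamonds, with SE). The red diamonds lie in the upper left, from -2.10 to -0.71 in root and from 2.01 to 4.03 in shoot.

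The mean over both calcium levels was compared between root and shoot, a contrast that the choice of genes did not use directly. Genes with such calcium responses may still lean to root, and the share higher in root among them was not counted. All 4 genes were higher in root in the limma fit, as were 36.4% of all genes, and 49.7% of all genes had a positive difference whatever its p. ADH2 was higher in root by a log2 difference of 2.99 (SE 0.18, limma adjusted p 1.3e-10), SUS2 A by 3.04 (SE 0.38, limma adjusted p 2.0e-06) and the hemoglobin by 2.91 (SE 0.43, limma adjusted p 1.2e-05). SUS2 B differed least, by 1.12 (SE 0.26, limma adjusted p 0.00109). Every call held under every alternative run, with adjusted p up to 1.1e-09 for ADH2, 1.5e-05 for SUS2 A, 0.00314 for SUS2 B and 4.6e-05 for the hemoglobin. Scaling by total gene reads shifted the median of all genes by 0.35 in this contrast and left the direction of each of the 4 as it was.

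That mean combined unlike differences. Under low calcium, root minus shoot was 0.84 for ADH2, 0.61 for SUS2 A, -0.23 for SUS2 B and 0.66 for the hemoglobin, and the root and shoot ranges overlapped for each. Under optimum calcium it was 5.14 for ADH2, 5.48 for SUS2 A, 2.48 for SUS2 B and 5.15 for the hemoglobin, with no overlap. Every root library, under either calcium level, lay above every optimum-calcium shoot library in all 4 genes. The share of all genes with this pattern, or separate under optimum calcium, was not counted, so both are only descriptions. No member had all root libraries above all shoot libraries, a pattern found in 15.6% of all genes. The change of this tissue difference with calcium is the same quantity as the difference between responses and is given as a description.

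Optimum-calcium root held the highest mean of each gene. For ADH2, SUS2 A and the hemoglobin low-calcium root came next, clear of optimum-calcium root, and then low-calcium shoot, which overlapped low-calcium root. For SUS2 B low-calcium shoot (12.14 ± 0.91) came between optimum-calcium root (12.61 ± 0.57) and low-calcium root (11.91 ± 0.14; log2, SD, n = 4 each), and it overlapped both root groups. Optimum-calcium shoot was lowest in all 4, with mean log2 values of 7.24 ± 0.27 for ADH2, 6.65 ± 0.27 for SUS2 A, 10.13 ± 0.41 for SUS2 B and 4.51 ± 0.91 for the hemoglobin (SD, n = 4 each). Only the hemoglobin overlapped there with the group above it.

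The copies of SUS2 differed in their tissue pattern. The log2 value of A minus that of B was -0.59, -0.63, -0.56 and -0.69 in low-calcium root, and -0.43, -0.57, -0.22 and -0.70 in optimum-calcium root. In shoot it was -1.05, -1.49, -2.38 and -0.92 under low calcium, against -3.25, -3.40, -3.16 and -4.10 under optimum calcium. Every root library lay above every shoot library in this measure, and the shoot calcium groups were separate while the root ones overlapped. Lengths of the genes are not given, so A minus B within a group is a ratio of reads and not of levels, whereas a fixed length factor cancels between tissues. Averaged over both calcium levels, A minus B was higher by 1.92 in root than in shoot, 0.84 higher under low and 3.0 higher under optimum calcium. An exact two-sided permutation test within calcium levels over 4900 assignments gave p = 0.000408, the smallest it can give. Without the ambiguous library the difference was 2.01, and leaving out each library in turn it was 1.77 to 2.01 (exact permutation p 0.000408 to 0.00122).

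In shares, SUS2 A held 39.5% ± 0.915 of the SUS2 reads in low-calcium root and 41.8% ± 3.51 in optimum-calcium root, and 27.4% ± 8.35 in low-calcium shoot and 8.36% ± 2.02 in optimum-calcium shoot (SD, n = 4 each). The A copy had fewer reads than the B copy in each of the 16 libraries.

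**Figure D3:**
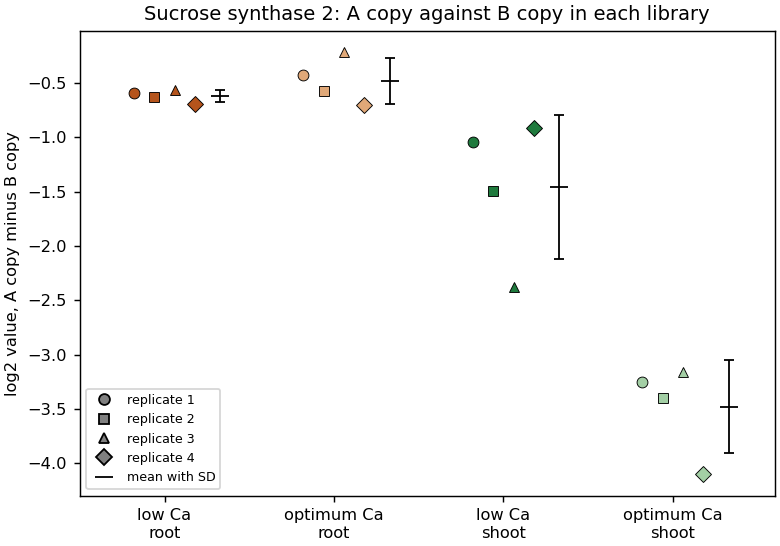
Log2 value of SUS2 A minus that of SUS2 B in each of 16 libraries, by group, with group mean and SD. Root libraries sit between -0.70 and -0.22, low-calcium shoot between -2.38 and -0.92 and optimum-calcium shoot between -4.10 and -3.16.

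Within groups the 2 SUS2 copies deviated together. With the group mean removed, Pearson's r between SUS2 A and SUS2 B over the 16 libraries was 0.923, and both copies lay on the same side of their group mean in 14 of 16 libraries. Without low-calcium shoot replicates 3 and 4, the farthest apart, r was 0.809. Both copies share library, scaling and possibly reads, and r is given as a description. For ADH2 r was lower: 0.178 with SUS2 A and 0.264 with SUS2 B, and -0.460 and -0.166 without those 2 libraries. The hemoglobin had r of 0.366 with ADH2, -0.012 with SUS2 A and 0.241 with SUS2 B, and 0.395, 0.083 and 0.443 without those 2 libraries.

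Single libraries differed in the same way. Optimum-calcium root replicate 3 was the highest of its group for SUS2 A, SUS2 B and the hemoglobin and the lowest for ADH2. Low-calcium shoot replicate 1 was the lowest of its group for ADH2 and the hemoglobin and the second highest for both SUS2 copies. Low-calcium shoot replicate 4, the library of ambiguous title, was the highest of its group for ADH2, SUS2 A and SUS2 B, and had the lowest summed shoot markers of the shoot libraries (82363 RPM). The part of that marker level in these values was not tested.

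**Figure D4:**
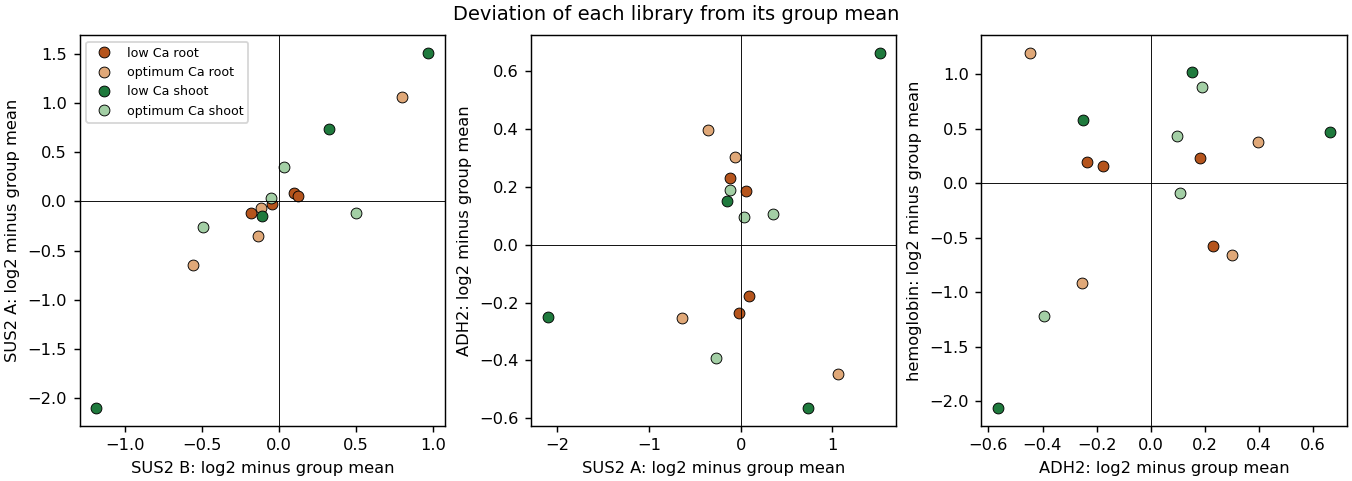
Deviation of each of 16 libraries from its group mean (log2) for SUS2 A against SUS2 B, ADH2 against SUS2 A and hemoglobin against ADH2, coloured by group. The SUS2 copies fall along a line (r = 0.923), while ADH2 against SUS2 A (r = 0.178) and hemoglobin against ADH2 (r = 0.366) scatter.

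Other genes of the same pathways were followed through 4 lists, 52 genes with the 4 left out. Of the 52, 1 was lower and none higher in root under low calcium, where 8.33% of all genes passed. In shoot 19 were higher and 8 lower, 27 of 52 where 39.4% of all genes passed, 18.5% higher and 20.9% lower. For the difference between the responses 10 passed, all with the more positive response in shoot, where 7.4% of all genes passed in either direction and 5.58% in that one. Both root values turned on single libraries: leaving out each in turn, 0 to 4 of the 52 passed in root, with 1.13% of all genes passing without low-calcium root replicate 4 and 14% without optimum-calcium root replicate 3. Without the ambiguous library the pathway counts were 1 in root, 23 in shoot and 9 for the difference. A negative root and a positive shoot change, whatever their p, was found in 7 of 52 (13.5%) and in 11.6% of all genes.

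Among the other fermentation genes 1 change passed in the calcium contrasts. The list held alanine aminotransferase, alcohol dehydrogenase-like and aldehyde dehydrogenase genes, and none described as pyruvate decarboxylase or lactate dehydrogenase. Those steps of fermentation are therefore not covered here. Of 5 genes, none passed in root (8.33% of all genes) and 1 in shoot (39.4% of all genes): alanine aminotransferase 2 (Et_5B_044565), which makes alanine from pyruvate, fell by 0.82 in shoot on the log2 scale (SE 0.17, limma adjusted p 0.00190). The 2 genes described as alcohol dehydrogenase-like 6 had log2 changes of 0.12 and 0.13 in root and 0.04 and 0.01 in shoot, none past the threshold. The median change of the list was 0.12 in root and -0.18 in shoot, against -0.03 and -0.12 for all genes.

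Of 14 genes for sucrose cleavage and hexose entry, 1 was lower in root, and 3 were higher and 4 lower in shoot, with a median of -0.35 in shoot against -0.12 for all genes. The 7 of 14 in shoot lay near the 39.4% of all genes, and the 1 of 14 in root near the 8.33%. Invertases, which split sucrose by hydrolysis, were among the lower ones in shoot. Neutral invertase 1 (Et_3A_023735), described as mitochondrial, fell by 1.36 (SE 0.32, limma adjusted p 0.00430). The insoluble beta-fructofuranosidase 4 (Et_3B_030326) fell by 0.56 (SE 0.14, limma adjusted p 0.00629). Of the same description as neutral invertase 1 were Et_3B_028147 and Et_4A_032450, with shoot changes of -0.40 and -0.30 that did not pass (limma adjusted p 0.492 and 0.167). The call for beta-fructofuranosidase 4 was lost with scaling by the total (adjusted p 0.0821) and with voom (0.0979), within 8.5e-04 to 0.0979 over its alternatives. Probable fructokinase-6 (Et_2A_017774), described as chloroplastic, fell by 0.83 in root (SE 0.20, limma adjusted p 0.0246). In shoot it fell by 0.76 (SE 0.20, limma adjusted p 0.00841). Its root call was lost without any of 5 single root libraries, with adjusted p up to 0.0770. The other gene of that description (Et_2B_021788) had -0.51 in root, which did not pass (limma adjusted p 0.085). In shoot Et_2B_021788 was at -0.64 (limma adjusted p 0.0112). Hexokinase-3 (Et_3A_025860) and hexokinase-5 (Et_9A_062547), which phosphorylate glucose, rose in shoot by 0.59 and 0.55. Their limma adjusted p were 0.0479 and 0.0283, and over their alternatives these reached 0.172 and 0.0877. The other hexokinase-3 (Et_3B_030224) and hexokinase-5 (Et_9B_065118) had shoot changes of 0.61 and 0.39 that did not pass (limma adjusted p 0.135 and 0.112). The sugar transporter SWEET4 (Et_1A_009171), named after its values were seen, had shoot values of 6.97, 6.96, 6.23 and 7.67 under low calcium, against 0, 1.57, 1.09 and 1.44 under optimum calcium, and 0 to 2.12 in root. Its responses differed by -5.87 (SE 0.92, limma adjusted p 0.00157). With a pseudocount of 0.1 the difference was -7.59 and that call was lost (adjusted p 0.133). The filter on RPM among the alternatives removed no gene, so genes with values may have been chosen by their reads beforehand. SWEET4 met that filter only through its low-calcium shoot libraries. Its p-value therefore cannot serve as a test of the difference, which is given as a description.

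Of 11 glycolysis genes none passed in root, while 3 were higher and 2 lower in shoot, 5 of 11 where 39.4% of all genes passed. All 5 are described as enzymes that turn fructose 6-phosphate into fructose bisphosphate. The 3 higher ones were 2 of the 4 genes described as phosphofructokinase 6 (Et_3A_024935 and Et_3B_029315), by 1.31 (SE 0.20, limma adjusted p 1.8e-04) and 1.10 (SE 0.28, limma adjusted p 0.00653), and the beta subunit of the pyrophosphate-dependent enzyme (Et_2B_021830), by 1.39 (SE 0.30, limma adjusted p 0.00258). Their root changes were -0.25, -0.63 and -0.66, none past the threshold, and the responses differed by -1.56 (limma adjusted p 0.00366), -1.73 (0.0139) and -2.04 (0.00837). The other genes described as phosphofructokinase 6, both isoform X1 (Et_3B_030886 and Et_9B_064154), had shoot changes of -0.93 and -0.59, not past the threshold (limma adjusted p 0.0574 and 0.0643). The 2 lower ones were copies of phosphofructokinase 7 (Et_2A_016206 and Et_2B_020325), at -0.66 (limma adjusted p 0.00378) and -0.41 (0.0168). The call for Et_2B_020325 was lost under 5 alternatives, with both other scalings, voom, shoot libraries alone and without low-calcium shoot replicate 4, and its adjusted p reached 0.204.

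The list for oxygen and nitric oxide signalling held 22 genes with the hemoglobin left out, none of them described by nitric oxide. They were respiratory burst oxidases, EIN3-binding F-box proteins, RAP2 factors, cysteine oxidases, ubiquinol oxidases, universal stress proteins and an ACC oxidase homolog. The RAP2 factors entered by name, and no description places them among oxygen-sensing factors. In shoot 13 were higher and 1 lower under low calcium, where 18.5% of all genes were higher and 20.9% lower. The higher ones were mainly burst oxidases, RAP2-13, EIN3-binding F-box and ubiquinol oxidase genes. None of the list passed in root. The median shoot change of the list was 1.08, against -0.12 for all genes. The lower gene, described as ACC oxidase homolog 1 (Et_7A_051635, chosen after its values were seen), was at -0.66 with a limma adjusted p of 0.0461, and it did not pass without the ambiguous library. The responses differed in 6 of 22, each more positive in shoot, as in 5.58% of all genes.

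Respiratory burst oxidases, which make superoxide at the plasma membrane, gave 3 of these 6. Copy Et_10B_003796 had 7.27, 6.68, 6.10 and 6.78 in low-calcium root, against 7.96, 6.66, 7.97 and 8.38 in optimum-calcium root. Its shoot values were 5.72, 6.59, 5.40 and 7.10 under low calcium, against 0.98, 2.57, 2.46 and 1.44 under optimum calcium. The shoot groups were far apart and the root groups overlapped: its log2 change was -1.03 in root (SE 0.46, limma adjusted p 0.153) and 4.34 in shoot (SE 0.46, limma adjusted p 6.3e-06). Et_3A_023793 and Et_3B_028206, also described as burst oxidase B, rose in shoot by 2.53 and 2.10 (SE 0.31 and 0.28, limma adjusted p 2.6e-05 and 5.9e-05) with root changes of 0.42 and 0.10. The differences between responses were -5.37 (limma adjusted p 3.8e-04), -2.11 (0.00854) and -1.99 (0.00668).

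Plant cysteine oxidases use oxygen to mark certain ethylene response factors for breakdown in Arabidopsis, and they are themselves raised by lack of oxygen there. The descriptions do not place RAP2-13, named below, among those factors. Copy Et_10A_000569 had 6.81, 7.48, 7.27 and 8.10 in low-calcium shoot, against 5.66, 6.11, 6.36 and 6.54 in optimum-calcium shoot, without overlap. In root it had 8.78, 8.5, 8.14 and 8.46 under low calcium, against 8.91, 9.22, 8.54 and 10.1 under optimum calcium, with overlap. It rose in shoot by 1.25 (SE 0.31, limma adjusted p 0.00612), its root change was -0.72 (limma adjusted p 0.144), and the responses differed by -1.97 (limma adjusted p 0.0123). Copy Et_10B_002726 had -0.83 in root and 0.80 in shoot, neither past the threshold (limma adjusted p 0.104 and 0.0555). Its responses differed by -1.63 (limma adjusted p 0.0367), a call kept in 11 of 22 alternatives and lost without the ambiguous library (adjusted p 0.0781). RAP2-13 (Et_4B_039855), an ethylene response factor, was at -1.11 in root (limma adjusted p 0.0829) and rose by 1.44 in shoot (limma adjusted p 0.00887; 0.0601 with voom), with responses that differed by -2.55 (limma adjusted p 0.0102). The other genes described as RAP2-13, Et_8A_058473 and Et_8B_060804, rose in shoot by 0.52 and 0.53 (limma adjusted p 0.0377 and 0.0164). The call for Et_8B_060804 was lost without low-calcium shoot replicate 2 (adjusted p 0.0583). Their root changes were 0.32 and 0.18, not past the threshold. The differences between their responses, -0.20 and -0.34, did not pass either (limma adjusted p 0.706 and 0.399). The cysteine oxidases, RAP2-13 copy Et_4B_039855 and burst oxidase Et_10B_003796 were named for their difference after their values were seen.

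**Figure D5:**
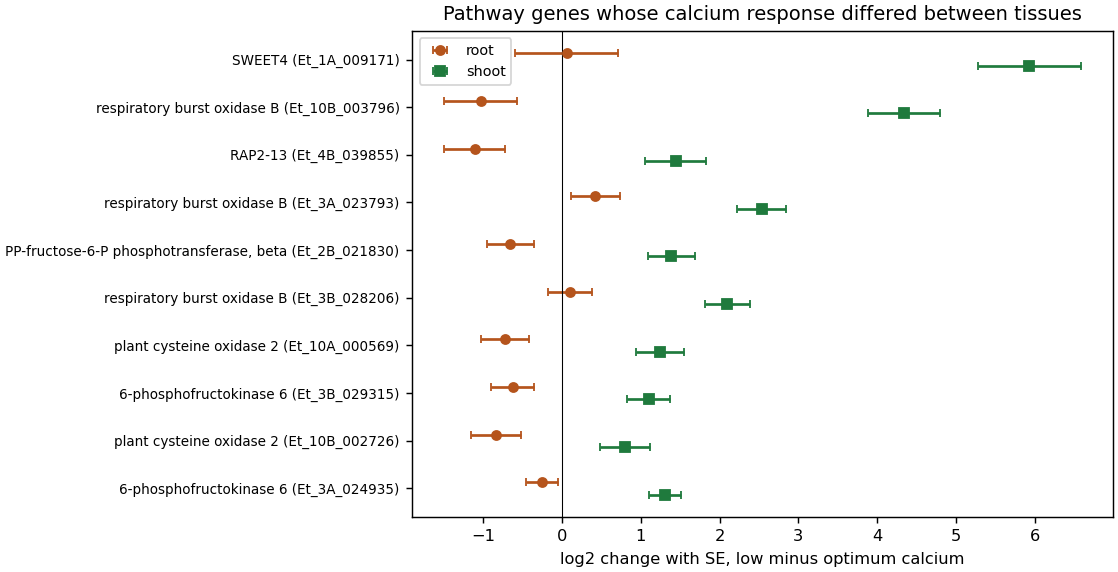
Log2 change under low calcium with SE in root (circles) and shoot (squares) for the 10 pathway genes, other than ADH2, SUS2 and hemoglobin, whose responses differed in the limma fit. Shoot changes run from 0.80 to 5.93 and root changes from -1.11 to 0.42.

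EIN3-binding F-box 1, which limits ethylene signalling, rose in shoot in 2 of its 4 listed copies, Et_2A_014650 by 1.28 and Et_2B_019050 by 1.33 (limma adjusted p 2.7e-04 and 4.7e-04). The other listed copies, Et_1A_007562 and Et_1B_014114, had shoot changes of -0.40 and -0.45 that did not pass (limma adjusted p 0.0625 and 0.0869). Both copies of ubiquinol oxidase 1b, an alternative oxidase of mitochondria named after its values were seen, rose in shoot by 1.38 (Et_7A_052159) and 2.06 (Et_7B_054799), with limma adjusted p of 0.00326 and 0.00109. Differences between the responses were not past the threshold for any of these 6 genes.

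The genes most like the 4 were taken by Pearson's r over the 16 libraries with the mean z-score of the 4, the tissue mean being subtracted first. The 8 nearest were Et_2B_021274 with no description (0.936), burst oxidase B Et_10B_003796 (0.935), nitrile-specifier protein 5 (Et_2B_019642, 0.923), the pectin methyltransferase QUA2 (Et_1B_012225, 0.914), a metal-associated isoprenylated protein 39 (Et_4B_039347, 0.913), the proline-synthesis enzyme delta-1-pyrroline-5-carboxylate synthase 1 (Et_4B_037519, 0.908), Et_4A_033205 with no description (0.897) and DNA methyltransferase 1B (Et_5A_042702, 0.893). Without subtracting the tissue mean 5 of the 8 were again among the nearest. All r values share the libraries and their scaling.

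Nearest to ADH2 alone were Et_2B_021274 (0.953), a second nitrile-specifier protein 5 (Et_2A_015488, 0.894) and XRI1 (Et_3A_027087, 0.881). SUS2 A lay nearest to DNA methyltransferase 1B (0.970), SUS2 B (0.968) and callose synthase 8 (Et_1B_012547, 0.950). SUS2 B lay nearest to SUS2 A, the beta subunit of the pyrophosphate-dependent phosphofructokinase (Et_2B_021830, 0.939) and DNA methyltransferase 1B (0.936). For the hemoglobin the highest r values were lower: gamma-aminobutyrate transaminase 1 (Et_7B_054709, 0.850), another metal-associated protein 39 (Et_4A_032624, 0.841) and catalase 1 (Et_2A_017514, 0.831). It also had the fewest reads of these genes, and the part of this in its r was not tested. Without subtracting the tissue mean the highest r was 0.925 for the hemoglobin, 0.980 for ADH2 and 0.962 for both SUS2 copies. Several of the nearest genes then differed.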

How the data were processed

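RNA of 16 tef libraries was analysed from 1 deposited table. The authors deposited log2 values for 5824 genes, and a percent identity of each gene's best hit, per the file headers. Aligner, genome build and counting method are not given in the labels or headers. When the log was undone and the offset of 1 removed, 100% of values fell on whole multiples of a step set by the library (tolerance 0.1 step). Each value is thus the log2 of scaled reads with a pseudocount of 1; whole reads were recovered from it, and the pseudocount understates the change of genes with few reads. Optimum-calcium columns begin with an unexplained letter H and were matched by tissue letter and number. Small RNA length classes in the same file were not analysed here.

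The deposited log2 values were fitted with limma 3.58.1 (R 4.3.3, intensity trend), using every library and a coefficient for each of 4 groups, and p-values were adjusted by Benjamini-Hochberg over 5824 genes at 0.05. The calcium response was taken in each tissue, as was the difference of these responses, and the tissues were compared by their mean over calcium. The comparison of SUS2 copies used an exact permutation test. RPM are recovered gene reads scaled to library size. Scripts ran in Python 3.11.15 (scipy 1.17.1, numpy 2.4.6, matplotlib 3.10.9, pandas 2.3.3).

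The 4 genes and all lists were chosen with earlier results of these data known. Named genes were the 4, up to 5 genes per list that passed, by mean reads (the 2 with most reads where none passed), the 8 nearest by correlation and the 3 nearest to each. Libraries were not paired by replicate number in the main fit, since no pairing is given. Same-numbered low- and optimum-calcium libraries had correlations of deviations from -0.405 to 0.081 in root and from -0.052 to 0.247 in shoot. For root against shoot of the same number they ran from -0.205 to 0.302 under low and -0.003 to 0.242 under optimum calcium. Such values cannot show whether libraries were paired. No 2 libraries were alike within sampling noise. Alternatives were median-ratio scaling, scaling by the total, a filter of 10 RPM in 4 libraries, a pseudocount of 0.1, a replicate block, 1 tissue alone, voom on the recovered reads, leaving out each library and, chosen after seeing the data, the ratio of recovered SUS2 reads. On simulated data with independent genes, limma called 73% of 2-fold and 96% of 4-fold changes in root, 77% and 97% in shoot and 87% and 100% between tissues, and 0.196%, 0.302% and 0.32% of unchanged genes.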

Additional observations from a re-analysis of the deposited data

Results flagged for a closer look

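In 7 of 104 groups of 4 libraries, 1 library stood apart by Dixon's ratio of its gap to the range, past its 95% critical value; chance gives about 1 in 20. Among the 4 genes these were ADH2 in optimum-calcium shoot, where replicate 1 was low (ratio 0.842), and the hemoglobin in low-calcium root, where replicate 3 was low (0.908). The other ratios were 0.852 for beta-fructofuranosidase 4 (Et_3B_030326) in low-calcium shoot, 1 for SWEET4 (Et_1A_009171) in low-calcium root, where the other libraries had no read, 0.874 for hexokinase-5 (Et_9A_062547) in low-calcium root, 0.870 for plant cysteine oxidase 2 (Et_10B_002726) in optimum-calcium root and 0.904 for burst oxidase B (Et_3B_028206) in optimum-calcium root.

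The calcium response differed between root and shoot by -4.30 for ADH2, -4.87 for SUS2 A and -2.72 for SUS2 B, with every low-calcium library below in root and above in shoot. These differences chose the genes and were not tested. The difference for SWEET4 below is likewise a description, since SWEET4 met the filter on RPM only through low-calcium shoot. In the limma fit the responses also differed, as log2 root minus shoot, by -5.87 for SWEET4 (Et_1A_009171), -5.37, -2.11 and -1.99 for burst oxidase B (Et_10B_003796, Et_3A_023793 and Et_3B_028206), -2.55 for RAP2-13 (Et_4B_039855), -2.04 for the phosphotransferase beta subunit (Et_2B_021830), -1.97 and -1.63 for plant cysteine oxidase 2 (Et_10A_000569 and Et_10B_002726) and -1.56 and -1.73 for phosphofructokinase 6 (Et_3A_024935 and Et_3B_029315).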

How the results depend on the processing

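The log2 values of the 4 genes in each contrast, and the SUS2 copy difference, kept their direction under every alternative run, and the 5 of these that were tested stayed past the threshold. SUS2 A minus B between tissues was 1.93 with a pseudocount of 0.1 and also as a ratio of recovered reads. Counts moved more. Genes called in root, 485, became 831 with root libraries alone, and 66 to 816 when a library was left out: leaving out low-calcium root 1, 2 or 4 gave 99, 88 and 66, and leaving out optimum-calcium root 1, 2, 3 or 4 gave 167, 136, 816 and 109. Calls of a differing response, 431, became 267 with voom and 261 to 704 on leaving out a library: 276 and 261 without low-calcium root 2 and 4, 268 without optimum-calcium root 1, and 704 and 271 without low-calcium shoot 3 and 4. Pathway genes called in root, 1, became 4 with voom, 3 with root alone and 0 to 4 on leaving out a library (4 without optimum-calcium root 3, 0 without low-calcium root 2 or 4 or optimum-calcium root 1, 2 or 4). Pathway genes with a differing response, 10, became 9 to 17 (17 without low-calcium shoot 3). The causes were not tested. Changes that turned sign were near 0: hexokinase-5 (Et_9A_062547) in root ranged from -0.0338 to 0.257 and the response difference of fructokinase-6 (Et_2A_017774) from -0.202 to 0.0738. With the replicate block 363, 2219, 4150 and 426 genes passed in root, shoot, tissue and difference, against 485, 2292, 4213 and 431, and 1, 31 and 11 pathway genes in root, shoot and difference. Whether same-numbered libraries are paired is not given, and 6 of 16 comparisons were highest for the same number. The filter removed 0 genes and tested nothing. How the genes with values were chosen is not given, and a choice by reads is possible. Recovered reads of the hemoglobin in optimum-calcium shoot, 9 to 48, limit its precision.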
